A study of Mus musculus with 34 samples.

Results

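A set of 8 genes that build the junctions of the outer cell layer of the mouse embryo, or carry ions and water across it, was followed from zygote to blastocyst. They were Cdh1 (E-cadherin), the junction proteins Tjp1 (ZO-1), Ocln (occludin), Cldn4, Cldn6 and Cldn7 (claudins), Atp1b1 (a subunit of the sodium pump) and Aqp3 (a water channel). They were picked by symbol as genes with these roles, with earlier results of these data known, and all 8 were found among the 43349 symbols present at all 3 stages. Single embryos had been injected as zygotes with mRNA for WT CHK1, a kinase of the DNA damage checkpoint, or for a mutant written R442Q in the labels. WT mRNA had been given to 5 of the embryos collected as zygotes, 4 collected at the late 2-cell stage and 7 collected as blastocysts, and R442Q mRNA to 6, 5 and 7. Zygotes and 2-cell embryos had no further treatment, whereas all 14 blastocysts had been cultured in 30 nM of a Chk1 inhibitor. "WT" and "R442Q" therefore name the injected mRNA, which was added to the embryos' own Chek1. Every group received CHK1 mRNA, so uninjected embryos, and blastocysts without inhibitor, were not analysed here. The labels give neither litter nor batch, so p-values measure only the spread between these embryos.

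The blastocyst forms when outer cells seal to each other and pump fluid into a cavity, the blastocoel. E-cadherin holds neighbouring cells together at adherens junctions, and tight junctions made of claudins and occludin, anchored inside the cell by ZO-1, close the gaps between them. The sodium pump then moves ions across the sealed layer, the trophectoderm, and water follows through aquaporins.

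Promoter sequences are shown for 4 of the genes whose levels changed clearly with stage: Cldn7 and Ocln, which had risen by the late 2-cell stage, and Cldn4 and Aqp3, which were highest in blastocysts. RefSeq promoters on GRCm38.p6 were found for 7 of the 8 genes. Each window below holds the 250 bases before an annotated start, 5′ to 3′ on the gene's strand, and overlaps no annotated exon. The window of Cldn6, which also rose early, lies partly in an exon and is not printed. Capitals mark the letters GGAATG, the core sequence bound by TEAD factors.
Cldn7, chr11:69964529-69964778, plus strand: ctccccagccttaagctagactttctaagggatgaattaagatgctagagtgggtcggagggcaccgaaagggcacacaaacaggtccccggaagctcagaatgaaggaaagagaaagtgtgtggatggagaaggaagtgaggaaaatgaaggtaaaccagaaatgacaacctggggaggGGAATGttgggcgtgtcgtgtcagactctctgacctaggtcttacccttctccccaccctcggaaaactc
Ocln, chr13:100552719-100552968, minus strand: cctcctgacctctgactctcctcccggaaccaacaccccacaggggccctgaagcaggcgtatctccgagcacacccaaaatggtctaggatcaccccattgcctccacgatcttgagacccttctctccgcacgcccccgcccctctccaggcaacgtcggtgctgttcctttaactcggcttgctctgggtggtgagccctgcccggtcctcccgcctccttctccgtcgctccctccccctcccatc
Cldn4, chr5:134946935-134947184, minus strand: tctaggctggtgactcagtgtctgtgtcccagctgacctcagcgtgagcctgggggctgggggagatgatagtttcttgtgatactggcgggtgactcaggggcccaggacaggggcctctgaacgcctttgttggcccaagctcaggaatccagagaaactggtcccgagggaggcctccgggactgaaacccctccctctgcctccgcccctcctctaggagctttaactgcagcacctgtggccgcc
Aqp3, chr4:41098184-41098433, minus strand: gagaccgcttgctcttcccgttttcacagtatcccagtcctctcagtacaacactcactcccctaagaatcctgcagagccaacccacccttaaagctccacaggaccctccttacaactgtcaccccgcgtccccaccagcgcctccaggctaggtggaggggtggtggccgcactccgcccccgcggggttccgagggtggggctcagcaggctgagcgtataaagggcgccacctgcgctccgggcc
The motifs GGAATG (TEAD), GCCNNNGGC (TFAP2) and AACCGGTT (GRHL) were searched on both strands. The first Cldn7 window held the TEAD letters once, 70 bases before the start, and 12.6% of 32851 RefSeq promoters held them too. The TFAP2 letters, held by 13.7% of promoters, occurred in a second window of Ocln that lies partly in an exon and is not printed. The GRHL letters, held by 0.116% of promoters, were in none of the windows of the 7 genes. A match describes the letters only. GC content was 62% for Cldn4, 64% for Aqp3, 64% for this Ocln window and 51.2% for this Cldn7 window, against a median of 52.4% over all promoters.

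Total estimated counts ranged from 7183632 to 11296522 per zygote and from 5727956 to 8916343 per late 2-cell embryo. Blastocysts had FPKM only (fragments scaled to transcript length and to library size), and their relative depth, read from the spacing of low values, was 0.874 to 1.11 of the mean. Chek1 overlapped between WT and R442Q embryos at every stage, at 4593 to 8653 and 5597 to 7171 CPM (counts scaled to the library total) in zygotes. Injected and own transcripts share this gene name, so the values show similar totals in both groups and check neither the injection nor the mutation. Stage markers set blastocysts apart from early embryos: 6 oocyte genes summed to 3406 to 6455 FPKM in zygotes, 1217 to 6903 in late 2-cell embryos and at most 4.54 in blastocysts, and 7 trophectoderm genes to 43.8 to 75.8 in zygotes, 65.1 to 224 in late 2-cell embryos and 1413 to 24844 in blastocysts. The oocyte sum overlapped between R442Q zygotes (median 4282 FPKM) and R442Q late 2-cell embryos (median 4097) through Oosp1, its most abundant gene (1949 to 2930 and 1347 to 6564), and Zp3 overlapped too, but the other 4 genes were apart, with Bmp15 at 961 to 1311 and 57.1 to 146 FPKM. Genome activation markers were apart between these 2 stages with either mRNA, at 5.58 to 10.6 and 68.5 to 607 FPKM in WT and 12.3 to 91.4 and 352 to 792 FPKM in R442Q embryos. The sum of 9 cumulus cell markers was at most 71.7 FPKM in any embryo. It came mostly from Cyp19a1 in zygotes (9.35 to 19.3 FPKM) and from Amhr2 later (14.2 to 71.5 in late 2-cell embryos, 0 to 69.9 in blastocysts). At the late 2-cell stage Tnfaip6 was at 0.1 to 7.06 FPKM in WT and 2.45 to 19.7 in R442Q embryos. Ptx3 reached 1.34 FPKM in R442Q embryos, while Fshr and Inha were at 0 in every late 2-cell embryo. In whole embryos, fewer cells of a type and less RNA per cell cannot be told apart.

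Across the 3 stages the order of the 8 genes was rebuilt. Compared per length, zygotes were led by Cdh1, at 18.7 ± 4.86 FPKM in WT and 16.4 ± 3.71 in R442Q embryos (SD over 5 and 6 embryos). Atp1b1 came next, at 11.1 ± 1.5 and 11.5 ± 2.99 FPKM, followed by Tjp1, at 8.21 ± 1.89 and 5.15 ± 2.17 FPKM. The means of the other 5 genes lay between 0.210 and 1.84 FPKM. Late 2-cell embryos were led by Cldn6, at 42.6 ± 3.91 FPKM in WT and 75.2 ± 38.6 in R442Q embryos (SD over 4 and 5 embryos), and it was the highest of the 8 in 4 of 4 WT and 3 of 5 R442Q embryos. Blastocysts were led by Cldn7 in all 14 embryos, at 321 ± 111 FPKM in WT and 270 ± 96.4 in R442Q (SD, n = 7 each). Ocln and Tjp1 were the lowest of the 8 by mean in both groups of blastocysts. The FPKM tables were normalised separately by stage, so levels across them are described without a test, and a stage cannot be told apart from its table.

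**Figure D1:**
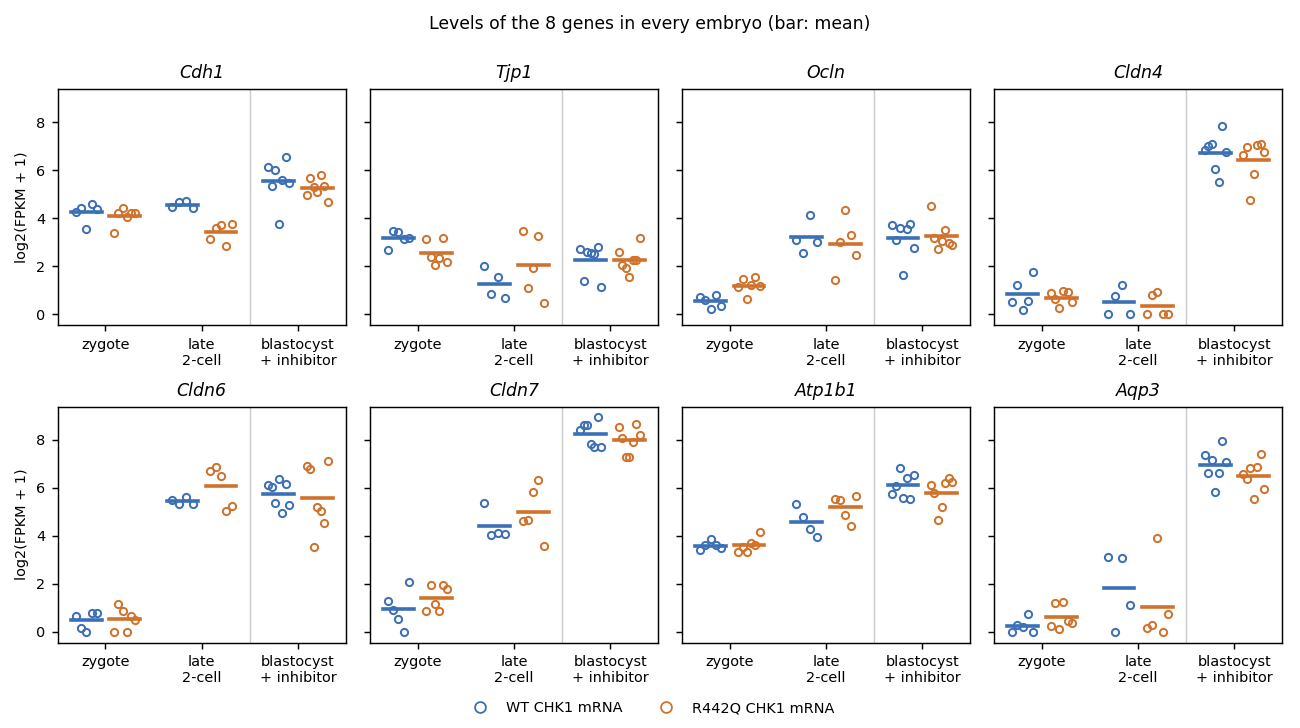
Level of each gene as log2(FPKM + 1) in every embryo, by stage (x axis) and injected mRNA (blue, WT; orange, R442Q); each circle is 1 embryo and each bar the mean. Cldn4 and Aqp3 were near 0 in most early embryos and high in all 14 blastocysts, Cldn6 and Cldn7 were already up at the late 2-cell stage, and Cdh1 separated the 2 mRNAs at the late 2-cell stage.

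The change from zygote to late 2-cell embryo, the time at which the embryo's own genome takes over from maternal RNA, was tested on counts with edgeR's quasi-likelihood test. In WT embryos 5 of the 8 genes rose and 1 fell; 61.2% of 16199 tested genes were called in that comparison, 36.2% as higher and 25% as lower. In R442Q embryos 4 rose and 2 fell, against 65.1% of all genes called, 35.3% higher and 29.8% lower. The median log2 change of the 8 genes was 2.72 in WT and 1.68 in R442Q embryos, against 0.34 and 0.22 over all genes tested. All log2 changes are followed by their standard error (SE), and all p-values are adjusted over all genes by the Benjamini-Hochberg method.

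Cldn6 (chr17:23679249-23682446, plus strand, GRCm38) made the largest step of the 8. It held 0.865, 0.115, 0, 0.946 and 0.904 CPM in WT zygotes and 59.7, 51.7, 62.7 and 53.9 CPM in WT late 2-cell embryos. In R442Q embryos it held 0 to 1.77 CPM in zygotes and 133, 150, 112, 41.2 and 47.4 CPM at the late 2-cell stage. Every late 2-cell embryo was far above every zygote, and the 4 WT embryos lay close together while the 5 R442Q embryos split into 3 high and 2 low. Its log2 change was 6.54 ± 0.72 in WT (edgeR adjusted p 5.0e-08) and 7.06 ± 0.66 in R442Q (2.7e-09). These steps start from 0 to 8 counts in WT zygotes and 0 to 13 in R442Q zygotes, so their size is uncertain.

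Cldn7 (chr11:69964779-69967885, plus strand) and Ocln (chr13:100496507-100552718, minus strand) rose in both groups from a low base. Cldn7 went from 0 to 3.73 CPM in WT zygotes to 34.5, 14.2, 16.5 and 18.5 CPM in WT late 2-cell embryos, and from 0.696 to 2.24 CPM to 20.7, 26.0, 35.1, 68.2 and 9.65 CPM in R442Q embryos. Stages did not overlap in either group, and the log2 change was 4.07 ± 0.73 in WT (edgeR adjusted p 5.1e-05) and 4.31 ± 0.67 in R442Q (6.0e-06). Ocln rose to 19.2, 12.8, 40.0 and 17.9 CPM in WT late 2-cell embryos and to 3.11, 14.1, 40.4, 11.9 and 9.87 CPM in R442Q embryos. The stages did not overlap in WT, but the lowest R442Q late 2-cell embryo lay within the range of the R442Q zygotes. Ocln had a log2 change of 4.14 ± 0.63 in WT (edgeR adjusted p 6.2e-06) and of 1.92 ± 0.53 in R442Q (0.0028).

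Atp1b1 (chr1:164437109-164458355, minus strand), whose protein helps to fold and place the sodium pump, rose by a smaller step. It stood at 18.5, 18.3, 13.6, 22.0 and 19.0 CPM in WT zygotes and 74.8, 59.9, 47.1 and 20.2 CPM in WT late 2-cell embryos. One WT late 2-cell embryo stayed inside the zygote range. In R442Q embryos it stood at 10.2 to 26.5 CPM and then at 57.1, 53.8, 39.6, 37.4 and 84.1 CPM, with no overlap. This was a log2 change of 1.37 ± 0.34 in WT (edgeR adjusted p 0.0013) and 1.44 ± 0.31 in R442Q (2.7e-04), and in WT it was 0.90 ± 0.34 with the length and GC trend taken out (0.027). Atp1b1 overlaps Nme7 on the opposite strand, with 15.8% of its 50-base stretches occurring there, and whether strand was used in counting is not given.

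Tjp1 (chr7:65296165-65527781, minus strand) fell in both groups. It stood at 31.5, 43.4, 57.5, 34.3 and 38.4 CPM in WT zygotes and at 11.5, 5.52, 8.49 and 3.91 CPM in WT late 2-cell embryos. In R442Q embryos it stood at 27.6, 24.9, 17.6, 20.8, 28 and 21.3 CPM and then at 9.14, 8.03, 18.6, 10.6 and 2.24 CPM. All late 2-cell embryos but 1 R442Q embryo were below all zygotes of their group. On the log2 scale the change was -2.58 ± 0.44 in WT (edgeR adjusted p 2.4e-05) and -1.48 ± 0.38 in R442Q (0.0015), where it was -0.93 ± 0.36 with the length and GC trend taken out (0.028).

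Cdh1 (chr8:106603351-106670246, plus strand) took different courses in the 2 groups. In WT embryos it went from 73.4, 83.3, 43.1, 93.0 and 81.1 CPM in zygotes to 88.0, 100, 111 and 93.0 CPM at the late 2-cell stage, a log2 change of 0.31 ± 0.28 that did not pass (edgeR adjusted p 0.341). In R442Q embryos it went from 35.6, 67.6, 79.3, 62.8, 65.6 and 72.7 CPM to 21.6, 49.1, 28.5, 26.8 and 54.8 CPM. It fell there by 1.01 ± 0.26 on the log2 scale (edgeR adjusted p 0.0019), a call kept in all 20 fits without 1 embryo but lost with each library's trend on transcript length and GC content taken out (-0.57 ± 0.26, adjusted p 0.060). The difference between these changes was tested directly. The interaction was -1.32 ± 0.38 on the log2 scale (edgeR adjusted p 0.030), and Cdh1 was the only one of the 8 genes to pass it, against 10.1% of all genes. It missed the threshold in 13 of the 20 fits without 1 embryo, with adjusted p-values from 0.051 to 0.087, highest without WT late 2-cell replicate 2, and with no filter on low counts (0.060). With the length and GC trend taken out it was -0.59 ± 0.38 and did not pass (0.399).

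The interaction of the other 7 genes did not pass. That of Ocln was -2.22 ± 0.79 (edgeR adjusted p 0.077), with 95% limits from -3.77 to -0.67. DESeq2 gave it an adjusted p of 0.048, and without R442Q late 2-cell replicate 3 it was 0.020 in edgeR. That of Tjp1 was 1.1 ± 0.55 (edgeR adjusted p 0.218), and 0.033 without R442Q late 2-cell replicate 5.

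Aqp3 (chr4:41092722-41098183, minus strand) and Cldn4 (chr5:134945119-134946934, minus strand) were at the edge of detection in early embryos. A library's floor of 3 counts corresponded to 0.266 to 0.524 CPM. Aqp3 stood at 0 to 1.08 CPM in WT zygotes and 0.106 to 1.63 CPM in R442Q zygotes. At the late 2-cell stage it was uneven between embryos of a group, at 12.8, 0, 12.3 and 1.87 CPM in WT and 0.174, 0.349, 22.3, 0 and 1.12 CPM in R442Q. The 3 embryos above 12 CPM carried 79, 80 and 135 counts and the other 6 at most 11. The log2 change of Aqp3 in WT embryos was 4.15 ± 1.51 (edgeR adjusted p 0.021), but it was 0.060 without WT late 2-cell replicate 1 and 0.061 without replicate 3. In R442Q embryos it was 2.88 ± 1.30 (0.056) and depended on 1 embryo: without R442Q late 2-cell replicate 3 it was -0.35 (0.815). It passed without any 1 of 6 other embryos (adjusted p 0.029 to 0.047), with RLE scaling (0.049), with no filter (0.044) and with DESeq2 (0.037). Cldn4 stood at 0.252 to 3.96 CPM in zygotes and at 0 to 2.32 CPM in late 2-cell embryos, with 5 of the 9 at 0 counts, and its change passed in neither group (-0.93 ± 1.28, adjusted p 0.541, in WT and -1.24 ± 1.18, 0.366, in R442Q).

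**Figure D2:**
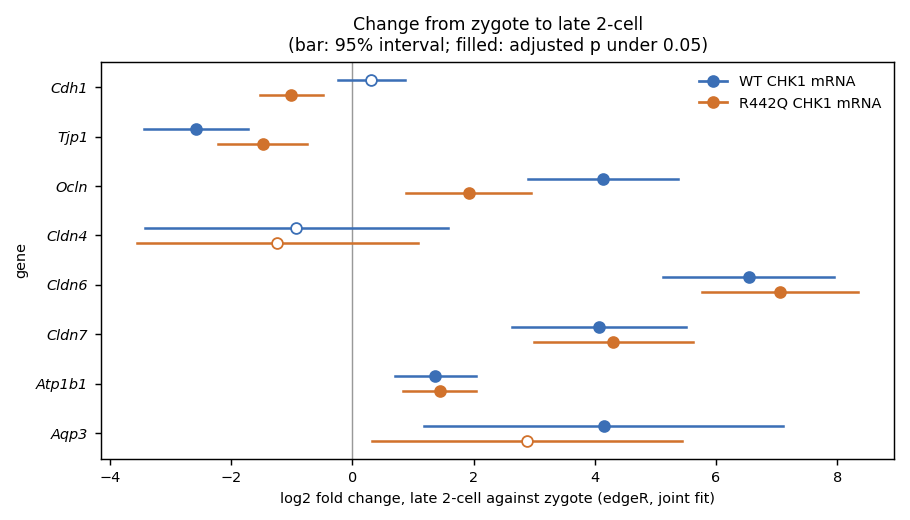
Log2 fold change from zygote to late 2-cell embryo for each gene (y axis) in WT (blue) and R442Q (orange) embryos, from edgeR's joint fit; bars are 95% intervals and filled circles passed an adjusted p of 0.05. Cldn6, Cldn7, Ocln and Atp1b1 rose and Tjp1 fell in both groups, and Cdh1 passed the threshold, as lower, in R442Q embryos (-1.01) but not in WT (0.31).

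The effect of the R442Q mRNA was then tested within each stage. In zygotes 6 of the 8 genes had enough counts to test, since Cldn6 and Aqp3 did not pass the filter. Ocln was higher and Tjp1 lower, against 13.2% of 12420 genes called, and Tjp1 was the only one of the 6 whose groups did not overlap, against 9.39% of all genes. The median log2 change of the 6 was -0.02, against 0.01 over all genes. Genome activation markers summed to 5.58 to 10.6 FPKM in WT and 12.3 to 91.4 in R442Q zygotes, and oocyte markers to 4810 to 6455 and 3406 to 5038, with Zp3 (74.8 to 123 and 21.2 to 50 FPKM) and Oosp1 (3017 to 4319 and 1949 to 2930) apart and the other 4 overlapping, among them Bmp15 (931 to 1103 and 961 to 1311). Their part in the zygote differences was not tested.

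Tjp1, the scaffold that ties tight junction proteins to actin, averaged 41.0 ± 10.2 CPM over the 5 WT zygotes and 23.4 ± 4.12 CPM over the 6 R442Q zygotes (SD). Each of the 6 R442Q values, listed above, was below each of the 5 WT values. The difference was -0.68 ± 0.18 on the log2 scale, a 1.61-fold lower level (edgeR adjusted p 0.020). The call was lost without WT replicate 3 (0.062), in the joint fit with late 2-cell embryos (0.478) and with limma on FPKM (0.106), where 2 R442Q embryos reached the WT range.

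Ocln was 1.85, 1.15, 0.504, 1.76 and 0.678 CPM in WT zygotes and 2.92, 5.31, 1.37, 3.37, 5.33 and 2.83 CPM in R442Q zygotes. These values are only 4 to 15 counts in WT and 13 to 50 counts in R442Q embryos. The groups overlapped through 1 R442Q embryo, and the other 5 were above all WT embryos. The difference was 1.68 ± 0.48 on the log2 scale (edgeR adjusted p 0.029). The call was lost without WT replicates 2, 3 or 5 (0.067, 0.067 and 0.068), without R442Q replicates 2 or 5 (0.062 and 0.061), in the joint fit (0.143) and with limma on FPKM (0.069).

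The difference did not pass for the remaining 4 genes. It was -0.11 ± 0.19 on the log2 scale for Cdh1 (edgeR adjusted p 0.765), with 95% limits from -0.49 to 0.27, and 0.07 ± 0.21 for Atp1b1 (0.884), with limits from -0.35 to 0.49. It was -0.44 ± 0.63 for Cldn4 (0.715) and 0.40 ± 0.72 for Cldn7 (0.779), both at 1 to 2 CPM on average. Without WT replicate 5 they were 0.25 for Cldn4 and 1.64 for Cldn7, still without a call.

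At the late 2-cell stage 7 of the 8 genes were tested, since Cldn4 did not pass the filter, and Cdh1 alone was called. Of 13883 genes 4.18% were called, and 12.4% had groups that did not overlap; of the 7 genes that was also Cdh1 alone. Cdh1 averaged 98.0 ± 9.90 CPM over the 4 WT embryos and 36.2 ± 14.8 CPM over the 5 R442Q embryos (SD). The highest R442Q embryo, at 54.8 CPM, lay below the lowest WT embryo, at 88.0 CPM, and the groups were also apart in FPKM, at 20.8 to 25.1 in WT and 6.11 to 12.5 in R442Q. The difference was -1.34 ± 0.34 on the log2 scale, a 2.54-fold lower level (edgeR adjusted p 0.042). The length implied by counts and FPKM ran from 4087 to 4467 bases in WT and from 2333 to 4391 in R442Q embryos. Counts and FPKM of Cdh1 thus did not scale alike in every embryo, and the cause was not tested.

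The Cdh1 call rested on few embryos and on how the libraries were corrected. When each of the 9 embryos was left out in turn, 7 fits missed the threshold. Without WT replicates 1 to 4 the edgeR adjusted p was 0.067, 0.118, 0.101 and 0.105. Without R442Q replicates 1, 3 and 4 it was 0.072, 0.0505 and 0.074. The log2 change itself ran from -1.55 to -1.23 over the 9 fits. A fit that took out each library's trend on length and GC of the transcripts, added once the data had been seen, gave -0.74 ± 0.35 and did not pass (0.354), and limma on FPKM gave 0.077. In the joint fit it was -1.40 ± 0.28 (0.0018), and it was -1.37 ± 0.35 with DESeq2 (0.0022). The longest Cdh1 transcript has 4430 bases and 50.7% GC. The median GC over genes with more than 90 counts in all at this stage was 48.9%, and no such median was taken for length. Oocyte markers summed to 1217 to 3139 FPKM in WT and 1657 to 6903 in R442Q late 2-cell embryos, mostly from Oosp1 (medians 1270 and 3691). Nlrp5 was higher in R442Q embryos without overlap (22.16 to 44.45 FPKM in WT and 44.7 to 50.54 in R442Q). The median of Bmp15 was higher there too (71.2 and 106.8), and that of Zar1 was similar (12.1 and 12.7). The medians of Zp3 (72.7 and 57.9) and Gdf9 (86.5 and 53.8) lay the other way. Genome activation markers summed to 68.5 to 607 and 352 to 792, and the sum of all FPKM was 712234 to 742246 in WT and 814376 to 976830 in R442Q embryos. Their part in the Cdh1 difference was not tested.

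**Figure D3:**
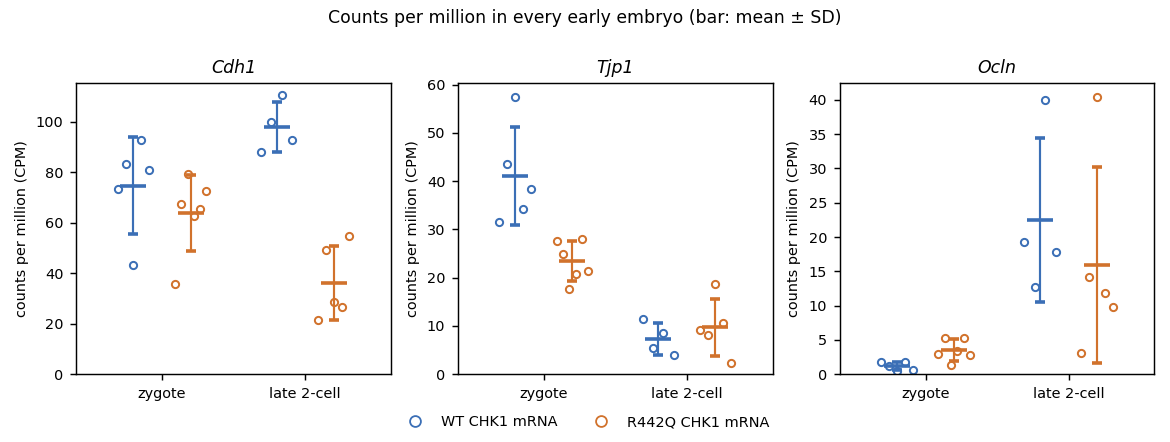
CPM (y axis, linear from 0) of Cdh1, Tjp1 and Ocln in every zygote and late 2-cell embryo by injected mRNA; circles are embryos and bars the mean ± SD. The groups are apart for Tjp1 in zygotes (WT 31.5 to 57.5, R442Q 17.6 to 28) and for Cdh1 in late 2-cell embryos (WT 88.0 to 111, R442Q 21.6 to 54.8).

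At this stage the SD in CPM was larger over R442Q than over WT embryos for 6 of the 8 genes, and smaller for Cldn4 (1.11 in WT and 0.747 in R442Q) and Atp1b1 (23.2 and 18.7). The share of all genes with a larger SD was not computed. Across genes, an embryo's median correlation with its group was also lower in R442Q (0.827 to 0.859) than in WT embryos (0.874 to 0.891). Cldn6 averaged 57.0 ± 5.07 CPM over WT and 96.7 ± 49.7 CPM over R442Q embryos (SD), a log2 change of 0.86 ± 0.40 (edgeR adjusted p 0.233), with 95% limits from 0.08 to 1.64. Cldn7 was 20.9 ± 9.18 and 31.9 ± 22.3 CPM, a log2 change of 0.71 ± 0.51 (0.470) that was 0.22 without R442Q replicate 4. Whether the spread itself differed was not tested. Ocln had a log2 change of -0.47 ± 0.60 (0.713), Atp1b1 of 0.23 ± 0.40 (0.795) and Aqp3 of -0.49 ± 1.5 (0.891), so these intervals allow changes of over 1 on the log2 scale. Without 1 embryo the change of Ocln ran from -1.07 (without R442Q replicate 3) to -0.051 (without WT replicate 3), and that of Aqp3 from -0.96 to -0.014 (without WT replicates 2 and 3). Tjp1 had a log2 change of 0.49 ± 0.66 (0.731). The length implied by its counts and FPKM ran from 896 to 7170 bases in R442Q late 2-cell embryos, so its counts and FPKM did not scale alike there. For Ocln the implied length ran from 2402 to 2602 bases in WT and from 1351 to 2155 in R442Q late 2-cell embryos. The cause was not tested for either gene.

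In inhibitor-treated blastocysts none of the 8 genes was called with limma on log2(FPKM + 1), a scale that understates changes of low genes. Only 1 of 11297 genes was called (0.00885%), and 836 had an unadjusted p under 0.05. The groups overlapped for all 8 genes, while 0.416% of all genes had groups that did not. Of the 8 log2 changes 6 were negative, with a median of -0.27, against -0.10 over all genes tested. Tjp1, at 0.02, also turned negative (-0.044) when every embryo was given the same FPKM sum. The lowest was Aqp3, at -0.44 ± 0.32 (limma adjusted p 0.822; 95% limits from -1.07 to 0.20), and the highest Ocln, at 0.10 ± 0.40 (0.973; limits from -0.68 to 0.88). The values by gene were as follows.

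Cdh1 ranged from 12.7 to 92.6 FPKM with a median of 46.8 in WT blastocysts, and from 24.6 to 54.5 with a median of 38.6 in R442Q blastocysts. WT embryos thus held both the lowest and the highest Cdh1 value. Aqp3 ranged from 55.0 to 245 (median 133) in WT and from 45.2 to 170 (median 93.4) in R442Q blastocysts. Cldn4 ranged from 44.5 to 226 (median 113) and from 25.9 to 138 (median 107) FPKM. Both genes, near their floor in most early embryos, were above every early embryo in all 14 blastocysts. Cldn7 ranged from 205 to 489 (median 336) in WT and from 155 to 400 (median 272) in R442Q blastocysts.

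Cldn6 was at 29.8 to 80.3 FPKM (median 64.9) in WT and at 10.7 to 139 (median 35.6) in R442Q blastocysts. Of the R442Q embryos 3 were above every WT embryo and 2 were below, so its mean was higher in R442Q blastocysts (66.8 against 56.0 FPKM) while its mean log2 level was lower (-0.16 ± 0.49, limma adjusted p 0.968). Atp1b1 was at 45.3 to 113 (median 66.5) and 24.0 to 83.6 (median 68.2) FPKM. Ocln was at 2.08 to 12.7 (median 10.8) and 5.58 to 21.9 (median 7.42), and Tjp1 at 1.22 to 6.03 (median 4.94) and 1.90 to 8.07 (median 3.78) FPKM. Ocln and Tjp1, called in zygotes on counts, were not called here with limma on FPKM. With limma on FPKM they were not called in zygotes either (adjusted p 0.069 and 0.106).

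**Figure D4:**
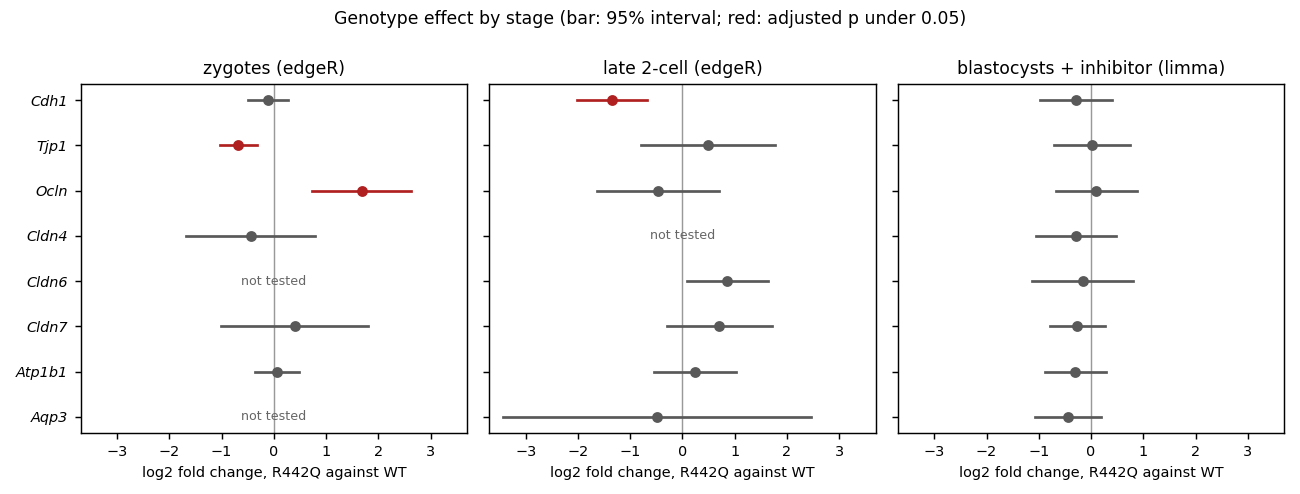
Log2 fold change of R442Q against WT embryos (x axis) for each gene in zygotes, late 2-cell embryos and inhibitor-treated blastocysts, with 95% intervals; red marks an adjusted p under 0.05. Tjp1 (-0.68) and Ocln (1.68) passed in zygotes, Cdh1 (-1.34) at the late 2-cell stage, and no gene in blastocysts.

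Single blastocysts differed several-fold in every gene. The highest embryo was 3.16 times the lowest for Cldn7, the steadiest of the 8, and 13.0 times for Cldn6. WT replicate 6 was among the 3 highest embryos for 6 genes, and R442Q replicates 3 and 4 were each among the 3 lowest for 5 genes. Of the WT embryos, replicate 6 had the fewest genes at FPKM 1 or more (9852, against 10714 to 12191) and the lowest median correlation across genes with the others (0.838); among R442Q embryos replicate 7 did (8189 genes and 0.804). Trophectoderm markers summed to 13383 FPKM in WT replicate 6, and to 1413 and 4464 FPKM in R442Q replicates 3 and 4, against medians of 6773 in WT and 5027 in R442Q embryos. The highest sum, 24844 FPKM, was that of WT replicate 2, which was among the 3 highest embryos for 0 of the 8 genes. Epiblast markers summed to 113 in WT replicate 6 and to 359 and 502 in those 2 R442Q embryos. The part of cell makeup in the levels was not tested.

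Whether the genes varied together across the 14 blastocysts was examined for all 28 pairs. Pearson's r was positive in 26, with a median of 0.39, and 2 pairs passed a permutation test adjusted over the 28. The same values were not computed for pairs of other genes, so they are not read as particular to this set. Cldn4 and Cldn7 had an r of 0.82 (permutation p 1.1e-04, adjusted 0.0031) and a Spearman's rho of 0.84 (permutation p 3.8e-04, adjusted 0.011). Without the 2 embryos farthest from the median of Cldn4 the r was 0.78, and it was 0.85 within WT and 0.79 within R442Q embryos. Cdh1 and Aqp3 had an r of 0.77 (permutation p 9.9e-04, adjusted 0.014) and a rho of 0.73 (permutation p 0.0043, adjusted 0.060). That r was 0.64 without the 2 farthest embryos, 0.94 within WT and 0.47 within R442Q embryos, so it was weaker in R442Q embryos, a difference that was not tested. All values come from the same 14 libraries. The summed FPKM of the 8 genes had an r of -0.21 and a rho of -0.02 with the number of genes detected (permutation p 0.477 and 0.951) and an r of 0.29 and a rho of 0.41 with relative depth (permutation p 0.316 and 0.148). Without the 2 farthest embryos these r were 0.16 and 0.35, and adjusted over 18 such relations the p for r were 0.710 and 0.699.

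**Figure D5:**
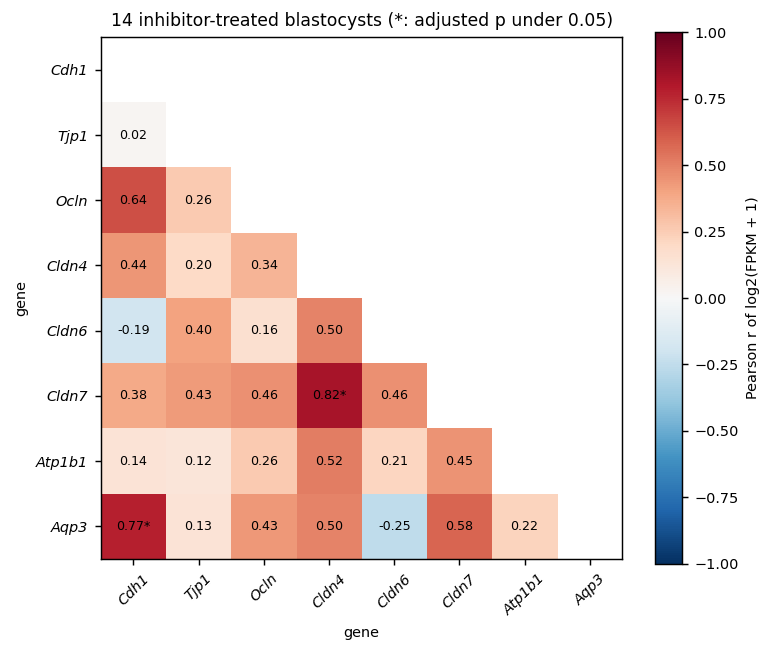
Pearson's r of log2(FPKM + 1) between the 8 genes (both axes) over 14 inhibitor-treated blastocysts, colour from -1 to 1; asterisks mark an adjusted permutation p under 0.05. Cldn4 with Cldn7 (0.82) and Cdh1 with Aqp3 (0.77) passed, and the lowest r was that of Cldn6 with Aqp3 (-0.25).

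Genes among the 3 most like each of the 8 over the 14 blastocysts, out of 7940 with a mean of at least 5 FPKM, are given as a description. For Cldn4 they were Tspan18, Capg and Slc22a5 (r 0.92, 0.92 and 0.91), and for Cldn7 Slc44a1, Gm42900 and Slc2a3 (0.92, 0.91 and 0.90). For Aqp3 they were Rtn3, Hexa and Sh3bp5 (0.92, 0.88 and 0.87), and for Cdh1 Hexa, Slc35f5 and Rrm1 (0.89, 0.89 and 0.88). Hexa was thus among the 3 genes most like Aqp3 and like Cdh1. For Atp1b1 they were Lgmn, Rpusd3 and Trappc6a (0.89, 0.84 and 0.82), for Tjp1 Krcc1 and Gm6710 (0.87 and 0.83), and for Ocln Dr1, Slc4a2 and Tdg (0.87, 0.83 and 0.81). Cldn6 had the least close ones, Noct, Dapp1 and Slc6a8 (0.80, 0.77 and 0.76).

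Other parts of the same machinery were read from 7 lists of 86 genes: adherens and tight junctions, desmosomes and keratins, gap junctions, ion transport, water channels and transcription factors of the outer layer. From zygote to late 2-cell, 31 rose and 16 fell of 69 tested in WT, and 26 rose and 21 fell in R442Q embryos. Over all genes 36.2% rose and 25% fell in WT and 35.3% and 29.8% in R442Q embryos. In WT embryos desmosome and keratin genes showed 8 rises and 0 falls among 11 tested, and adherens junction genes 3 rises and 5 falls among 12. In R442Q embryos these counts were 4 and 1, and 2 and 7.

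Of the pump's partners, Atp1b2, another beta subunit, was at 0 counts in each of the 5 WT zygotes and averaged 76.3 ± 25.1 CPM over the 4 WT late 2-cell embryos (SD), at least 188-fold higher than the highest floor of 3 counts in a WT zygote (edgeR adjusted p 1.2e-08). In WT embryos Gja1 (connexin 43) rose from 0.349 to 53.5 CPM, Tead4, a trophectoderm factor, from 0.136 to 29.2, Cldn3 from 0.185 to 15.4, Tjp3 (ZO-3) from 0.0252 to 14.8 and Pkp3, a desmosome protein, from 0.0765 to 10.7 CPM on average. Their edgeR adjusted p-values were 5.9e-07, 5.2e-06, 3.4e-04, 7.5e-05 and 2.7e-05. The largest falls in WT were Gja4 (connexin 37) by 5.27, Nectin3 by 2.99, the polarity protein gene Patj by 2.94, Cdh2 (N-cadherin) by 2.75, Jam2 by 2.64 and Gata3 by 2.49 on the log2 scale, with adjusted p-values from 9.2e-09 to 1.2e-04.

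In R442Q embryos the largest rises were Atp1b2 (log2 7.67), Cxadr, a tight junction receptor (6.41), Fxyd5, a pump regulator (6.15), Cldn3 (5.67), Aqp11 (5.49) and Tead4 (5.37), with edgeR adjusted p-values from 6.5e-12 to 1.7e-04. The largest falls were Gata3 (-3.82), Gja4 (-3.81), Patj (-3.45), Cdh2 (-3.17), Grhl1 (-2.55) and Jam2 (-2.41), with adjusted p-values from 1.7e-10 to 7.2e-05. Of the 69 genes 7 passed the interaction, 6 of them lower, a share equal to the 10.1% of all genes. Actn4 (alpha-actinin), at -2.10 ± 0.28 (edgeR adjusted p 8.2e-05), Tjap1, at -1.91 ± 0.40 (0.0036), and Nectin3, at 1.53 ± 0.36 (0.0090), kept their calls in all 20 fits without 1 embryo. With the length and GC trend taken out, Actn4 (0.0506) and Tjap1 (0.241) missed the threshold and Nectin3 passed. Gja1 (-3.68 ± 1.08, edgeR adjusted p 0.031) lost its call in 6 of the 20, with adjusted p-values up to 0.122 without WT late 2-cell replicate 2.

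Between the injected mRNAs, 7 of 51 list genes were called in zygotes, 1 of 63 in late 2-cell embryos and 0 of 58 in blastocysts (limma), against 13.2%, 4.18% and 0.00885% of all genes. The E-cadherin partner Ctnnb1 (beta-catenin) was lower in R442Q zygotes, at 171 ± 38.6 CPM in WT against 47.9 ± 19.3 CPM (SD), a log2 change of -1.73 ± 0.22 (edgeR adjusted p 2.0e-04) kept in every alternative. Gja4 (-1.18 ± 0.17, 4.6e-04) and Nectin3 (-0.78 ± 0.11, 3.8e-04) were lower too, but missed the threshold in the joint fit (0.131 and 0.123). A further 3, named after their values were seen because they lie under the 10 CPM of the naming rule, were Krt18 (0.728 to 5.34 CPM) and Gja1 (0.349 to 2.07 CPM), which were higher, and Cldn9 (4.21 to 1.47 CPM), which was lower. Of these 3, Krt18 alone kept its call in every alternative, while Gja1 (0.110) and Cldn9 (0.369) lost theirs in the joint fit. Cldn9 was also lost with no filter and in 6 of 11 fits without 1 embryo, and Gja1 in 3 of the 6 such fits in which it was tested. At the late 2-cell stage Actn4 was lower in R442Q embryos, at 88.8 ± 8.89 against 25.9 ± 3.84 CPM (SD, n = 4 and 5; log2 -1.70 ± 0.29, edgeR adjusted p 0.0097). Like that of Cdh1, its call was lost with the length and GC trend removed (0.293).

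In blastocysts the highest list genes by mean FPKM were the keratins Krt18, at 5127 ± 3830 in WT and 3189 ± 2294 in R442Q, and Krt8, at 4158 ± 3549 and 2094 ± 1315 (SD, n = 7 each). Of the water channels, Aqp9 was next after Aqp3, at 50.1 ± 27.6 and 41.7 ± 31.2 FPKM. The tight junction receptor F11r stood at 145 ± 34.8 and 133 ± 39.9 FPKM. A further beta subunit of the pump, Atp1b3, went the other way from Atp1b1 in mean FPKM after the 2-cell stage, at 149 ± 39.1 in WT late 2-cell embryos and 32.7 ± 14.3 in WT blastocysts, a description across separately normalised tables.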

How the data were processed

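Single mouse embryos were profiled by SMART-seq2 with Tn5 fragmentation and Nextera libraries, per the labels' protocols. The deposited tables hold estimated counts per gene symbol, not normalised, for zygotes and late 2-cell embryos, and FPKM, normalised by the authors for transcript length and library size, for all 3 stages. RSEM and mm10 are named per the submitters' processing notes; aligner, annotation and use of strand are not given in the sources used here. Symbols were placed on GRCm38 with GENCODE M21. The 8 genes and all gene lists were chosen with earlier results of these data known.

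Counts were rounded and tested with edgeR 4.0.16 (R 4.3.3): filterByExpr (minimum count 10), TMM scaling and quasi-likelihood tests within each stage, and on 4 groups for stage changes and the interaction. Blastocysts were tested with limma 3.58.1 on log2(FPKM + 1) for genes at FPKM 1 or more in at least 7 embryos. Genes passed at 0.05 after Benjamini-Hochberg adjustment over all genes tested. Correlations used 100000 resamples. Both tools were tested on simulated data with 200 changed genes. Depth was 5727956 to 11296522 counts per early embryo, and a floor of 3 counts covers counting error only, since no molecular identifiers were counted and reads can be copies of one molecule. Alternatives were RLE scaling, no filter, DESeq2 1.42.0, limma on FPKM, a joint fit, a replicate block, a pseudocount of 0.1 and other scalings for blastocysts, leaving out each embryo, and, chosen after seeing the data, removal of each library's trend on transcript length and GC and a replicate block by the number in the column names. Named list genes passed the threshold at a mean of at least 10 CPM, up to 4 per direction (6 for stage changes), and the 3 genes most like each of the 8 had the highest Pearson's r among genes at a mean of 5 FPKM or more. Some genes that this rule selects are not reported here.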

Additional observations from a re-analysis of the deposited data

Results flagged for a closer look

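Among the 48 sets of values (8 genes in 6 groups), 4 held 1 embryo far from the others by Dixon's test, which chance alone does for about 1 in 20 groups. Ocln reached 21.9 FPKM in R442Q blastocyst replicate 1. Cldn7 reached 3.73 CPM in WT zygote replicate 5. Aqp3 reached 1.63 CPM in R442Q zygote replicate 4 and 22.3 CPM in R442Q late 2-cell replicate 3. The effect of the R442Q mRNA on Cdh1 also differed between zygotes and late 2-cell embryos, by -1.32 on the log2 scale in the interaction test, but by -0.59 with the length and GC trend removed, where it did not pass.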

How the results depend on the processing

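Of the 8 genes' own tests, leaving out 1 embryo lost a call 28 times, gained one 8 times and turned a direction 22 times, and other settings did so 16, 4 and 5 times. All turned directions were of uncalled changes. The cause was not tested unless stated.

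The number of the 8 genes called in zygotes, 2, was 0 in the joint fit, with limma on FPKM and with a replicate block by title number, 1 with a block by column number, and 0 to 2 without 1 embryo. At the late 2-cell stage, 1 was 0 with limma on FPKM, with the length and GC trend removed and with either block, and 0 to 1 without 1 embryo. In the interaction, 1 was 0 with no filter and with the trend removed, 2 with DESeq2 and 0 to 2 without 1 embryo. Over all genes, 1643 zygote calls were 270 in the joint fit and 1004 with the block by column number. The 580 late 2-cell calls were 889 with no filter, 1843 with DESeq2, 128 with the trend removed, 2507 in the joint fit, 58 with a replicate block by title number and 0 (edgeR, with 2158 genes at an unadjusted p under 0.05) by column number, and 142 to 891 without 1 embryo: 351, 142, 283 and 209 without WT replicates 1 to 4, and 372 and 891 without R442Q replicates 2 and 3. The 1639 interaction calls were 2526 with DESeq2, 908 with the trend removed, 1085 and 958 with the block by title and by column number, and 1089 (without WT zygote replicate 2) to 2311 without 1 embryo. The 1 blastocyst call was 0 with no filter and with the block, 3 with TMM scaling, and 0 to 30 without 1 embryo (30 without WT replicate 7, 2 without R442Q replicate 1, 0 without WT replicates 1, 2, 3, 5 or 6 or R442Q replicates 2, 3, 4, 5 or 7, with 648 to 922 and, without WT replicate 6, 959 genes at an unadjusted p under 0.05); at those 0 calls limma gave 1246 (no filter) and 890 (block) genes at an unadjusted p under 0.05. RLE scaling moved the median interaction of all genes from -0.16 to -0.006, and its calls from 497 higher of 1639 to 707 of 1624. With limma on FPKM 411 of 1642 zygote calls were higher, against 783 of 1643. With the trend removed the medians of all genes were 0.11 for the interaction, -0.02 for the WT stage change (0.34 before) and 0.13 for the R442Q one (0.22 before), and 464 of the 908 interaction calls and 65 of the 128 late 2-cell calls were higher, against 497 of 1639 and 170 of 580.

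Titles renumber the early embryos, whose column names and descriptions skip some numbers, so both numberings were tried, the second chosen after seeing the data. At no stage did every pair of embryos with the same number have deviations correlated over 0.1 (-0.17 to 0.21 by title number, and -0.14 to 0.041 by column number over 5 zygote and 3 late 2-cell pairs), so neither numbering was taken to pair them. With a replicate block by title number the adjusted p was 0.090 for Tjp1 and 0.053 for Ocln in zygotes, 0.073 for Cdh1 at the late 2-cell stage, 0.035 for the Cdh1 interaction and 0.104 for Aqp3 in WT, and the calls of Actn4 at the late 2-cell stage, of Gja1 and Cldn9 in zygotes and of the Gja1 interaction (0.084) were lost too; the directions of Atp1b1 in zygotes (-0.082) and of the Cldn7 interaction (-0.15) turned. By column number the calls of Ocln (adjusted p 0.057) and Cldn9 in zygotes, of Cdh1 (0.203) and Actn4 at the late 2-cell stage, of Aqp3 in WT (0.066) and of the Gja1 interaction were lost, those of Tjp1 in zygotes (0.045) and of the Cdh1 interaction (0.016) passed, and the log2 changes of Cdh1 in zygotes (0.040) and of the Cldn7 interaction (-0.35) turned. Giving each blastocyst the same FPKM sum turned Tjp1 to -0.044. Without 1 embryo the zygote changes ran from -0.26 to 0.0012 for Cdh1, -0.71 to 0.25 for Cldn4, 0.088 to 1.64 for Cldn7 and -0.069 to 0.18 for Atp1b1. Late 2-cell changes ran from -0.034 to 0.42 for Atp1b1, 0.20 to 0.74 for Tjp1, -1.07 to -0.051 for Ocln, 0.22 to 1 for Cldn7 and -0.96 to -0.014 for Aqp3, which was -1.71 and -3.45 with the block by title and by column number. Blastocyst changes ran from -0.58 to -0.12 for Cdh1, -0.49 to -0.0069 for Cldn4, -0.37 to -0.14 for Cldn7, -0.40 to -0.11 for Atp1b1, -0.62 to -0.27 for Aqp3, -0.17 to 0.14 for Tjp1, -0.16 to 0.20 for Ocln and -0.42 to 0.18 for Cldn6. The interaction ran from -0.99 to 0.79 for Cldn4, -0.98 to 0.65 for Cldn7, -0.19 to 0.40 for Atp1b1, 0.27 to 1.21 for Cldn6 and -4.40 to -0.39 for Aqp3. The R442Q stage change ran from -0.35 to 3.57 for Aqp3 and -1.98 to -0.92 for Cldn4, and the WT one from 0.11 to 0.41 for Cdh1 and -2.12 to -0.25 for Cldn4. Counts under the floor limit Cldn4 and Aqp3 in early embryos, and Cldn6 and Cldn7 in some zygotes.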
